A study of Mus musculus with 2 samples.

Results

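The genes described here encode the 4 ID proteins (*Id1*, *Id2*, *Id3* and *Id4*) and the 3 E proteins (*Tcf3*, *Tcf4* and *Tcf12*). They were matched by gene symbol in a table of read counts with 24421 rows, in which each of the 7 symbols had 1 row. RNA-Seq was performed on primary chondrocytes from the rib cartilage of newborn mice and on primary dermal fibroblasts from the dorsal skin of newborn mice, which served as the cells with low *Sox9* expression. The sources name no genotype, treatment or pooling for either culture. Each cell type had 1 library, so no difference has a replicate check and no p-value was computed. Intervals are 95% intervals of counting error alone and hold no variation between cultures. They treat each read as 1 molecule. PCR copies of 1 molecule could not be recognised among the reads, so the intervals may be too narrow even for counting error.

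E proteins are basic helix-loop-helix (bHLH) transcription factors that bind E-box DNA as homodimers or together with tissue-restricted bHLH factors such as MyoD and Twist. ID proteins carry the helix-loop-helix but lack the basic DNA-binding region, so a dimer of an ID protein and an E protein does not bind DNA. *Id1*, *Id2* and *Id3* are well known early targets of bone morphogenetic protein (BMP) signaling through SMAD proteins, a pathway that drives cartilage formation. The E proteins are thus the partners of the inhibitors and not inhibitors of this kind themselves.

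The libraries held 18788599 counts for chondrocytes and 17563724 counts for dermal fibroblasts. Levels are given as CPM (counts per 1000000 counts, after edgeR TMM scaling of the library size), and folds are ratios of these scaled counts, with counts under 3 set to 3. Where values stand as a pair, the chondrocyte value comes first. The cell type markers matched the labels, since all 7 chondrocyte markers were over 2-fold higher in chondrocytes and all 7 dermal fibroblast markers were over 2-fold higher in dermal fibroblasts. *Col2a1*, the main collagen of cartilage, had 1447098 counts against 0, and *Col1a1* had 39143 against 322379. Reads of other cell types were present, and their part in the results below was not tested. The summed level of 8 skeletal muscle markers was 1741 CPM in chondrocytes and 1262 CPM in dermal fibroblasts, and none of them was at 0. Of these 8 genes, 4 exceeded 2-fold on the chondrocyte side, 0 on the dermal fibroblast side, and 4 lay between. Among all genes with at least 10 counts, these shares were 12%, 16.2% and 71.8%. *Pax7* was 30.8-fold higher in chondrocytes (120 and 4 counts) and *Myod1* 4.82-fold higher (2328 and 496 counts), while *Actc1* was near equality (fold 0.939). The summed levels were 8.93 and 249 CPM for 6 keratinocyte markers, 14.5 and 45.0 CPM for 6 endothelial markers, 107 and 169 CPM for 6 macrophage markers, 10.5 and 75.3 CPM for 5 melanocyte markers, and 162 and 49.5 CPM for 5 Schwann cell markers. Most of the Schwann cell sum in chondrocytes was *S100b*, which chondrocytes also express and which had 2657 counts there. The markers *Dct* and *Tyrp1* of melanocytes were at 0 in chondrocytes. In bulk RNA, fewer cells of a type and less RNA per cell cannot be told apart.

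The transcripts of *Id1*, *Id2* and *Id3* were more abundant in chondrocytes than in dermal fibroblasts, by 3.95-fold to 6.16-fold, whereas *Id4* was lower in chondrocytes. None of the 3 E-protein genes differed by as much as 1.5-fold. Of the 7 genes, 3 exceeded 2-fold on the chondrocyte side, 0 on the dermal fibroblast side, and 4 lay between. Among the 14730 genes with at least 10 counts, 12% exceeded 2-fold on the chondrocyte side, 16.2% on the dermal fibroblast side, and 71.8% lay between. For all 3 genes the whole counting interval lay above 2-fold, which held for 7% of the 14730 genes. All 7 genes had well over 10 counts in each library, so none was removed by this minimum.

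**Figure D1:**
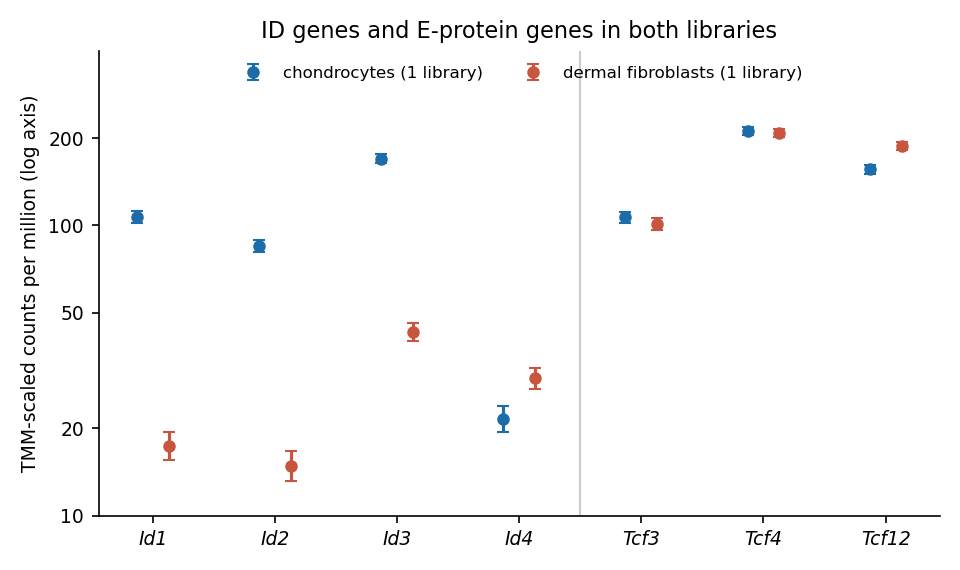
CPM with TMM scaling on a log axis for the 4 ID genes (left of the line) and the 3 E-protein genes in the chondrocyte library (blue) and the dermal fibroblast library (red); points are 1 library each and bars are exact 95% Poisson intervals. The intervals of both libraries are far apart for *Id1*, *Id2* and *Id3*, while *Tcf4* lies at 211 and 208 CPM.

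*Id1* encodes the founding member of the ID family (chromosome 2 of GRCm38, 152736251 to 152737410). In chondrocytes it reached 1918 counts, against 320 in dermal fibroblasts, or 107 CPM (interval 102 to 112) and 17.4 CPM (interval 15.5 to 19.4). The fold was 6.16 (interval 5.47 to 6.95), and 97.6% of the 11811 genes with at least 100 counts had a lower fold. *Id2* (chromosome 12, 25093799 to 25096092) encodes an ID protein that also binds the retinoblastoma protein. It had 1522 and 273 counts, or 84.9 and 14.8 CPM, a fold of 5.73 (interval 5.03 to 6.54). *Id1* and *Id2* could not be separated by their folds, since the ratio of the fold of *Id1* to that of *Id2* was 1.08 (interval 0.899 to 1.29).

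*Id3* (chromosome 4, 136143822 to 136145392) had the most counts of the ID genes in both libraries. Chondrocytes gave 3047 counts and dermal fibroblasts 793, or 170 and 43.1 CPM, a fold of 3.95 (interval 3.65 to 4.27). This fold was smaller than those of the other 2 genes by more than the counting error. The fold of *Id1* was 1.56 times that of *Id3* (interval 1.35 to 1.80), and the fold of *Id2* was 1.45 times that of *Id3* (interval 1.25 to 1.69). These ratios do not depend on the scaling between the libraries.

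*Id4* (chromosome 13, 48261116 to 48266028), the member of the family best known from neural and bone-forming cells, went the other way. Chondrocytes gave 387 counts and dermal fibroblasts 547, or 21.6 CPM (interval 19.5 to 23.9) and 29.7 CPM (interval 27.3 to 32.3). Dermal fibroblasts thus held 1.38 times the chondrocyte level (interval 1.21 to 1.57), within the 2-fold threshold but beyond the counting error. The fold of *Id1* was 8.46 times that of *Id4* (interval 7.08 to 10.1), the widest gap between any pair of the 7 genes. The annotated span of *Id4* overlaps that of *A330033J07Rik*, a long noncoding RNA gene with 21 and 14 counts, and how strand was treated in counting is not given in the sources used here.

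**Figure D2:**
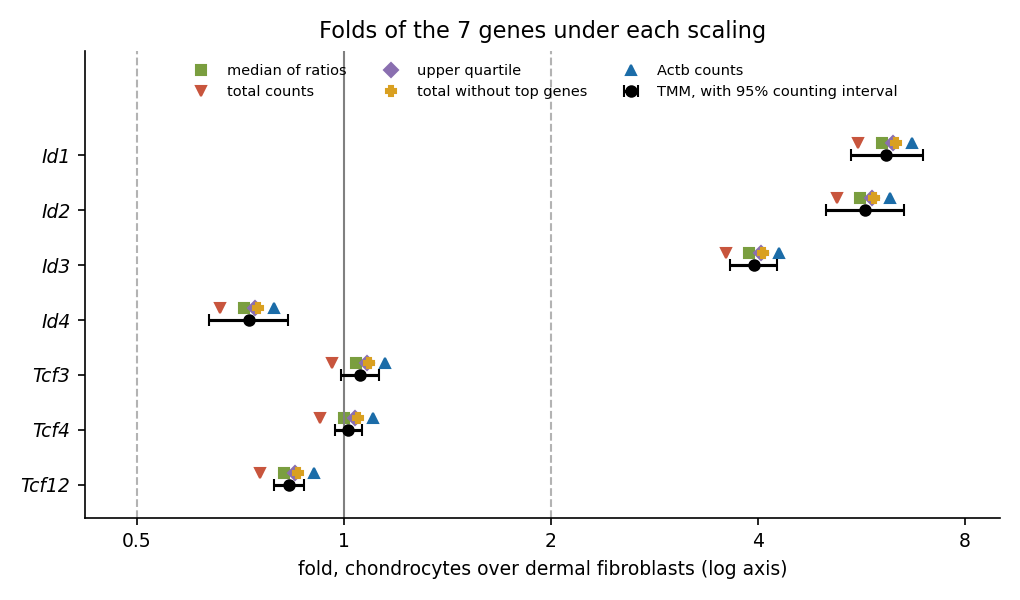
Fold of chondrocytes over dermal fibroblasts on a log axis for each gene, with TMM scaling (black, bars are 95% counting intervals) and with 5 other scalings (coloured marks); the solid line marks equality and the dashed lines 2-fold in each direction. *Id1*, *Id2* and *Id3* stay right of the 2-fold line and *Id4* and *Tcf12* left of equality under each scaling, while *Tcf3* and *Tcf4* cross equality.

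The promoters of *Id2*, *Id3* and *Id4*, the ID genes with an entry in the promoter table used here, are shown to set *Id2* and *Id3*, which were higher in chondrocytes, beside *Id4*, which was not. *Id1* is not part of this comparison. The sequences are the 250 bases before the RefSeq gene start in GRCm38.p6, 5′ to 3′ on the strand of the gene, at chr12:25096093-25096342 (minus strand), chr4:136143572-136143821 (plus strand) and chr13:48260866-48261115 (plus strand). Capitals mark the E-box CANNTG, to which bHLH dimers bind, and the SMAD-linked motifs GGCGCC and CAGAC, each searched on both strands, so that a match on the other strand is in capitals as well. No marked match overlaps another.
Id2: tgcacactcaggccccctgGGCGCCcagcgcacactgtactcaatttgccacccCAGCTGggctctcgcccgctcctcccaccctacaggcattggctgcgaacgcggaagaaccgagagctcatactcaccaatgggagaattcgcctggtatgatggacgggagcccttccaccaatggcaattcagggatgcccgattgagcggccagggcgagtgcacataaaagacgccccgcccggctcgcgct
Id3: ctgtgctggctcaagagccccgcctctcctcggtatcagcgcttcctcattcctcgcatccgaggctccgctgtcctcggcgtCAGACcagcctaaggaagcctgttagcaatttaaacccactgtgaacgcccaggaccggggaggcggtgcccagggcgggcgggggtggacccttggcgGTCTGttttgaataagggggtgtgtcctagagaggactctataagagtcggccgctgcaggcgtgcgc
Id4: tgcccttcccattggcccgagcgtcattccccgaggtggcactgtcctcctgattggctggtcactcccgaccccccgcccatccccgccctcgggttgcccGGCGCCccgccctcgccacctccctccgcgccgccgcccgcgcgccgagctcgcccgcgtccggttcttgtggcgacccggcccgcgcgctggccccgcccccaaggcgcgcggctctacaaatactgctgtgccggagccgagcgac

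In these windows, *Id2* had 1 E-box (CAGCTG, starting 196 bases before the gene start) and 1 GGCGCC (231 bases before). *Id3* had 2 matches of CAGAC, 1 on each strand, starting 167 and 68 bases before the gene start, and no E-box. *Id4* had 1 GGCGCC, 148 bases before the gene start, and neither of the other motifs. Among 32851 promoter windows of the same length, 66.2% held an E-box, 42.2% held CAGAC and 9.59% held GGCGCC. The rarest motif of these was thus present in *Id2* and in *Id4*, and no motif of the 3 was shared by *Id2* and *Id3*. The motif GGGCGG (GC box), also searched but not marked above, had 1 match in *Id2*, 2 in *Id3* and 5 in *Id4*. Bases outside these windows were not searched, so a motif absent here may lie elsewhere. Whether any of these motifs bears on the folds was not tested. The share of G and C was 62.8% in *Id2* and in *Id3* and 75.6% in *Id4*. A match of letters is not evidence of binding.

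The E proteins differed little between the libraries. *Tcf3* encodes the E12 and E47 proteins (chromosome 10, 80409541 to 80433976). Its counts were 1914 and 1863, or 107 and 101 CPM, a fold of 1.06 (interval 0.989 to 1.13). *Tcf3* is also an older symbol of *Tcf7l1*, a WNT effector of another family, which has its own row with 1144 and 894 counts. *Tcf4* encodes E2-2 (chromosome 18, 69343429 to 69687967) and had 3785 and 3833 counts, or 211 and 208 CPM, a fold of 1.01 (interval 0.969 to 1.06). The intervals of both genes include equality. With total counts as the scaling the folds of *Tcf3* and *Tcf4* fell to 0.960 and 0.923, and with *Actb* they rose to 1.15 and 1.10, so the counts give neither gene a direction.

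*Tcf12*, which encodes HEB (chromosome 9, 71844252 to 72111893), was the E-protein gene with a difference beyond counting error. Its counts were 2801 and 3462, or 156 and 188 CPM, and the level in dermal fibroblasts was 1.20 times that in chondrocytes (interval 1.14 to 1.27). Its fold differed from that of *Tcf3* (ratio of *Tcf3* to *Tcf12* 1.27, interval 1.17 to 1.38) and from that of *Tcf4* (ratio 1.22, interval 1.14 to 1.31). The folds of *Tcf12* and *Id4*, the genes lower in chondrocytes, could not be separated (ratio of *Id4* to *Tcf12* 0.874, interval 0.759 to 1.01). Each E-protein gene gives rise to several protein isoforms, which counts per gene do not separate. *Tcf4* overlaps the noncoding gene *Gm31439* and *Tcf12* overlaps the pseudogenes *Gm18821* and *Rpl15-ps2*, so a share of their reads may have been counted elsewhere or left out. RefSeq lists 16 curated transcripts of *Tcf3*, 6 of *Tcf4* and 5 of *Tcf12*.

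**Figure D3:**
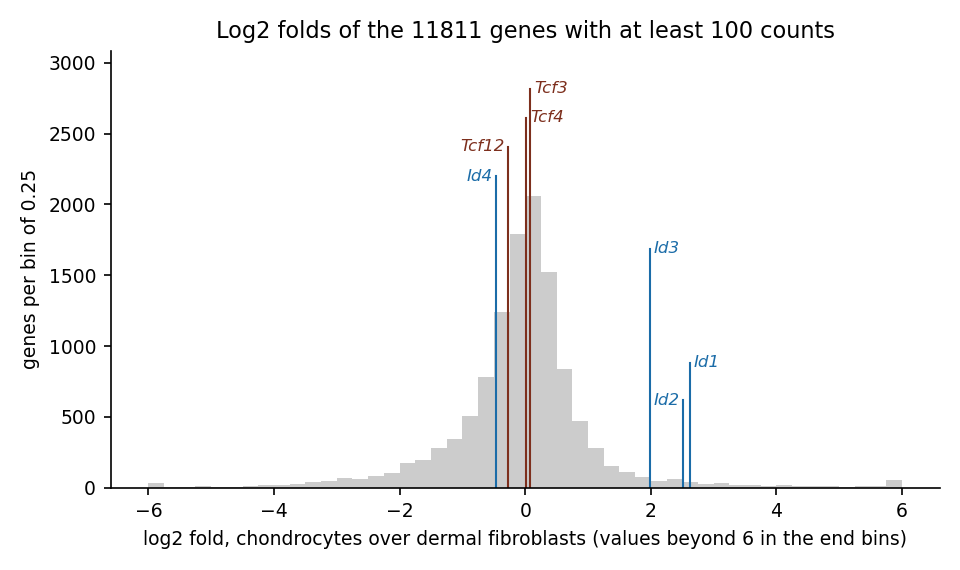
Number of genes in each bin of log2 fold (chondrocytes over dermal fibroblasts) for the 11811 genes with at least 100 counts, with lines at the ID genes (blue) and the E-protein genes (brown); line heights only separate the names. *Id1*, *Id2* and *Id3* lie in the right tail at 2.62, 2.52 and 1.98, and the other 4 genes lie within the bulk of the distribution.

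To compare levels between genes, the CPM were divided by the merged exon length of each gene in kilobases (CPM per kb), and the order of the genes depends in part on this choice of length. By merged exon length, in chondrocytes *Id3* (94.9 CPM per kb) and *Id1* (92.2 CPM per kb) led the 7 genes and did not differ beyond counting error (ratio 1.03, interval 0.971 to 1.09). *Id2* followed at 66.9, then *Tcf12* at 32.1, *Tcf3* at 26.4, *Tcf4* at 17.2 and *Id4* at 13.0 CPM per kb, each below its neighbour by more than the counting error. In dermal fibroblasts the order by merged exon length was led by the E proteins *Tcf12* (38.7 CPM per kb) and *Tcf3* (25.1 CPM per kb), and *Id2* was last at 11.7 CPM per kb. There *Tcf3* and *Id3* (24.1 CPM per kb) were not separated (ratio 1.04, interval 0.958 to 1.13), nor were *Id4* (17.9 CPM per kb) and *Tcf4* (17.0 CPM per kb, ratio 1.05, interval 0.961 to 1.15). *Id1* lay between *Tcf4* and *Id2* at 15.0 CPM per kb.

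With the longest coding sequence or the longest transcript as the length, *Id3*, *Id1* and *Id2* remained the first 3 genes in chondrocytes and *Id4* the last, but *Id3* then stood above *Id1* by 2.24 times and 1.44 times. The order of the E proteins in chondrocytes turned to *Tcf4*, *Tcf12*, *Tcf3* by coding sequence (102, 73.8 and 54.5 CPM per kb) and to *Tcf3*, *Tcf12*, *Tcf4* by longest transcript (36.2, 33.2 and 28.5 CPM per kb). In dermal fibroblasts *Id3* led by coding sequence (121 CPM per kb), ahead of *Tcf4* (100.3 CPM per kb), and *Id1* was last (34.5 CPM per kb). By longest transcript *Tcf12* still led there (39.95 CPM per kb) and *Id2* was last (11.7 CPM per kb). In dermal fibroblasts the data thus give no order between the families that holds for each length.

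Among the 13528 genes with at least 10 counts and a known exon length, *Id1* stood above 96.4% of genes in chondrocytes and 74.6% in dermal fibroblasts by level per kb of merged exons. For *Id3* these shares were 96.5% and 83.9%, and for *Id2* 94.6% and 68.7%. *Id4* stood above 71.9% and 78.3%. The E-protein genes held similar places in both libraries, with *Tcf12* above 88.2% and 90.1%, *Tcf3* above 85.6% and 84.6%, and *Tcf4* above 78.1% and 77.3%.

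Summed over the family, the ID genes took 6874 counts against 1933, or 383 and 105 CPM, a fold of 3.65 (interval 3.47 to 3.84). The 3 E-protein genes together had 8500 and 9158 counts, or 474 and 497 CPM, a fold of 0.953 (interval 0.925 to 0.982). With *Actb* scaling the summed E-protein fold was 1.04, so its direction depends on the scaling, while the summed ID fold ranged from 3.32 with total counts to 3.98 with *Actb*. Per kb of exon the summed ID level was 267 CPM per kb in chondrocytes and 68.6 CPM per kb in dermal fibroblasts. The summed E-protein level was 75.8 and 80.7 CPM per kb.

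The ratio of the summed ID level to the summed E-protein level, both per kb, was 3.52 (counting SE 0.0602) in chondrocytes and 0.850 (counting SE 0.0219) in dermal fibroblasts. It was 4.14 times as high in chondrocytes (counting SE 0.128), a value that needs no scaling between the libraries. The height of the ratio in each library depends on the gene lengths used. Without a length correction it was 0.809 and 0.211, which differ 3.83-fold. These are ratios of transcripts, and protein was not measured here.

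**Figure D4:**
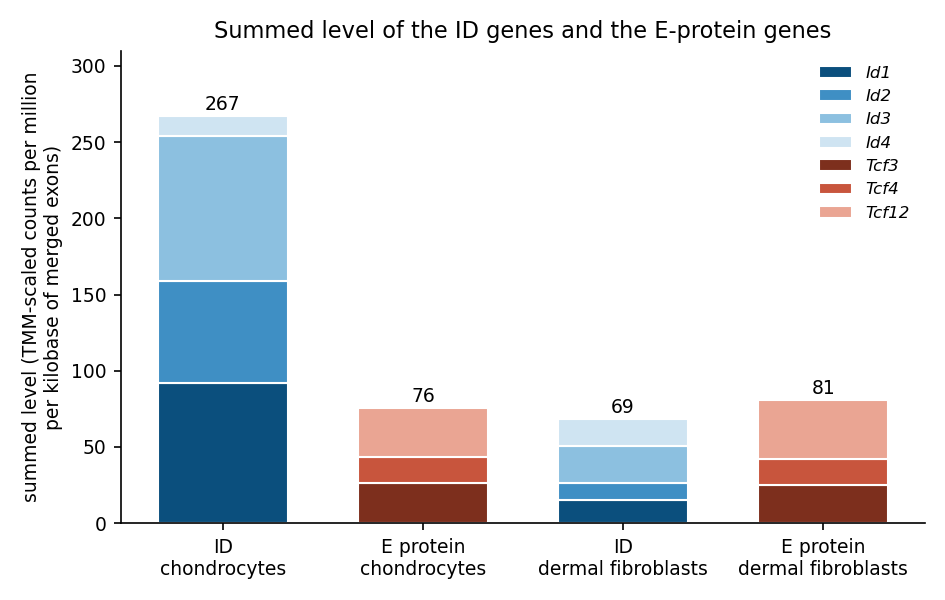
Summed level of the ID genes (blue) and of the E-protein genes (red) in each library, in CPM per kilobase of merged exons, stacked by gene, with the sum above each bar. The ID sum is 267 in chondrocytes and 68.6 in dermal fibroblasts, while the E-protein sums are 75.8 and 80.7.

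The composition of the ID family also differed. *Id4* made up 5.63% of the ID counts in chondrocytes (Clopper-Pearson interval 5.10 to 6.20) and 28.3% in dermal fibroblasts (interval 26.3 to 30.4). *Id1* made up 27.9% (interval 26.8 to 29.0) and 16.6% (interval 14.9 to 18.3), and *Id2* 22.1% (interval 21.2 to 23.1) and 14.1% (interval 12.6 to 15.8). *Id3* was the largest part by counts in both, at 44.3% (interval 43.1 to 45.5) and 41.0% (interval 38.8 to 43.3). Within the E proteins, *Tcf4* took 44.5% and 41.9% of the counts, *Tcf12* 33.0% and 37.8%, and *Tcf3* 22.5% and 20.3%.

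The tissue-restricted bHLH factors are the partners that E proteins lose when ID proteins bind them. Of 24 such genes of mesenchyme and muscle, 12 had at least 10 counts, and of these 6 exceeded 2-fold on the chondrocyte side, 4 on the dermal fibroblast side, and 2 lay between. Their median log2 fold was 0.91, against 0.00 over all genes with at least 10 counts. Of all those genes, 12% exceeded 2-fold on the chondrocyte side and 16.2% on the dermal fibroblast side. Of the bHLH genes, the 6 on the chondrocyte side were *Atoh8*, the tendon regulator *Scx* and the muscle regulators *Myod1*, *Myog*, *Myf5* and *Myf6*. *Scx* was at 2.83-fold (160 and 58 counts, interval 2.09 to 3.90). *Myf5* had 36 and 1 counts. *Myf6* had 8 and 3 counts and, like *Tal1* on the dermal fibroblast side (3 and 10 counts), an interval that included equality. The whole interval lay beyond 2-fold for 4 genes on the chondrocyte side and 2 on the dermal fibroblast side. *Twist2* and *Twist1*, regulators of mesenchyme and dermis, were 11.6-fold (114 and 1357 counts, interval 9.57 to 14.2) and 3.49-fold higher in dermal fibroblasts (373 and 1336 counts, interval 3.11 to 3.92). *Atoh8*, which is itself a BMP target, was 9.71-fold higher in chondrocytes (1531 and 162 counts, interval 8.25 to 11.5). The muscle regulators *Myod1* and *Myog* were 4.82-fold (2328 and 496 counts) and 2.10-fold higher in chondrocytes (3526 and 1728 counts, interval 1.98 to 2.22), beside the muscle marker levels given above, and with total counts as the scaling *Myog* was at 1.91-fold.

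The HES, HEY and BHLHE proteins are bHLH repressors that, unlike the ID proteins, have a basic region and bind DNA. Of 12 genes, 7 had at least 10 counts, and of these 0 exceeded 2-fold on the chondrocyte side and 4 on the dermal fibroblast side. Among all genes with at least 10 counts, 12% and 16.2% did so. The median log2 fold of the 7 genes was -1.10. *Bhlhe40*, with 809 and 2858 counts, was 3.44 times as high in dermal fibroblasts as in chondrocytes (interval 3.18 to 3.72). The NOTCH targets *Hes1* (226 and 886 counts) and *Heyl* (82 and 381 counts) were 3.82-fold and 4.52-fold higher there. *Hes6*, a HES protein that opposes *Hes1*, was 1.49-fold higher in chondrocytes (774 and 533 counts, interval 1.33 to 1.67). The fourth gene, *Hey2*, had 5 and 11 counts, and its interval on the dermal fibroblast side (2.14-fold, interval 0.686 to 7.86) included equality. It was at 1.97-fold with *Actb* scaling, and 3 of the 4 genes had the whole interval beyond 2-fold.

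Other genes commonly placed under BMP-SMAD control were compared because *Id1* to *Id3* are BMP targets. All 13 genes of the list had at least 10 counts, with a median log2 fold of 1.68. Of them, 8 exceeded 2-fold on the chondrocyte side, 2 on the dermal fibroblast side, and 3 lay between. Among all genes with at least 10 counts these shares were 12%, 16.2% and 71.8%. The whole interval lay beyond 2-fold for 6 genes of the list on the chondrocyte side and 2 on the dermal fibroblast side. Among the 6 were *Dlx5* (93 and 3 counts) and *Msx1* (13 and 1 counts), which reached 10 counts only through the chondrocyte library. Like the other lists, this one was chosen with earlier results of these data known, so the shares are not an independent comparison. *Bambi*, a decoy receptor induced by BMP, was 8.86-fold higher in chondrocytes (595 and 69 counts, interval 6.89 to 11.5). *Smad9*, a BMP-responsive SMAD, was 6.07-fold higher (461 and 78 counts, interval 4.77 to 7.82), and the inhibitory SMAD *Smad7* was 2.12-fold higher (754 and 366 counts, interval 1.87 to 2.40) and 1.93-fold higher with total counts as the scaling. *Grem1*, a secreted BMP antagonist, went the other way and was 4.97-fold higher in dermal fibroblasts (223 and 1139 counts, interval 4.30 to 5.77). *Atoh8* and *Hey1* are counted in this list and in a bHLH list as well.

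Of 14 genes named as BMP and GDF ligands, 11 had at least 10 counts, with a median log2 fold of 2.02. Of these, 6 exceeded 2-fold on the chondrocyte side and 2 on the dermal fibroblast side, against 12% and 16.2% of all genes with at least 10 counts. *Bmp5*, a ligand of developing cartilage, had 966 counts against 13 and was 76.3-fold higher in chondrocytes (interval 44.4 to 144). *Gdf5*, a joint and cartilage ligand, was 29.3-fold higher with few reads (114 and 4 counts, interval 11.1 to 109), *Bmp2* was 7.87-fold higher (115 and 15 counts, interval 4.58 to 14.5) and *Gdf10* was 5.19-fold higher (1132 and 224 counts). *Bmp1*, which despite its name is a procollagen proteinase, was 4.63-fold higher in dermal fibroblasts (2363 and 11232 counts, interval 4.43 to 4.84).

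The receptors and signal-carrying SMADs had a median log2 fold of -0.17, closer to equality than that of the ligands. Of 14 genes, 1 exceeded 2-fold on the chondrocyte side, 3 on the dermal fibroblast side, and 10 lay between. Over all genes with at least 10 counts these shares were 12%, 16.2% and 71.8%, so the number between was near that of genes at large. The receptor genes *Bmpr1a* and *Bmpr2* stayed near equality, at 1.05 (2241 and 2200 counts, interval 0.986 to 1.11) and 0.920 (1828 and 2040 counts, interval 0.864 to 0.981). The gene on the chondrocyte side was *Bmpr1b*, a receptor of early cartilage, at 2.05-fold (212 and 106 counts, interval 1.62 to 2.62) and at 1.87-fold with total counts as the scaling. The 3 genes on the dermal fibroblast side were *Acvrl1*, *Rgmb* and *Acvr2a*. *Rgmb* was at 2.59-fold (186 and 495 counts, interval 2.18 to 3.08). *Acvr2a*, an activin receptor gene, was at 2.12-fold (390 and 850 counts, interval 1.88 to 2.40) and at 1.95-fold with *Actb* scaling. *Acvrl1* and *Eng*, receptors known best from endothelium, were 3.65-fold (204 and 765 counts) and 1.78-fold higher in dermal fibroblasts (1296 and 2372 counts). The endothelial marker sum was higher there as well, and which cells carried these 2 transcripts was not tested.

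**Figure D5:**
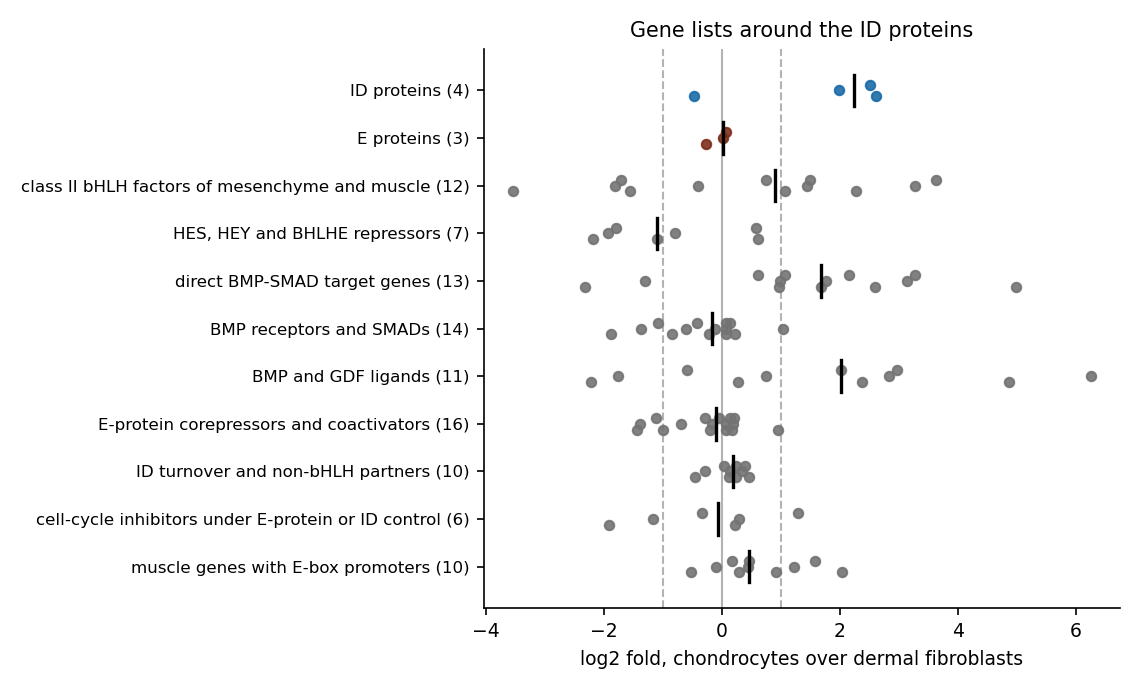
Log2 fold (chondrocytes over dermal fibroblasts) of each gene with at least 10 counts in 11 gene lists, 1 point per gene, with a black bar at the list's median and dashed lines at 2-fold in each direction; the number of genes is in brackets. The ID genes other than *Id4* lie right of the upper dashed line together with most BMP-SMAD targets, and the genes of ID turnover lie between the dashed lines.

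Most genes of the machinery that acts on ID and E proteins lay between the 2-fold thresholds, as did most genes at large. Of 10 genes for ID turnover and for ID partners outside the bHLH family, 0 were over 2-fold in either direction. Among all genes with at least 10 counts, 71.8% lay between. The median log2 fold of the 10 genes was 0.19. The deubiquitinase gene *Usp1*, whose product stabilises ID proteins, had 1228 and 990 counts, a fold of 1.27 (interval 1.17 to 1.39). *Fzr1*, an activator of the ubiquitin ligase that degrades ID proteins, had 1064 and 831 counts, a fold of 1.32 (interval 1.20 to 1.44). *Rbl1* and *Rbl2*, of the retinoblastoma family, had folds of 1.39 (interval 1.21 to 1.58) and 0.735 (interval 0.641 to 0.843). Of 16 genes for E-protein corepressors and coactivators, 0 exceeded 2-fold on the chondrocyte side, 3 on the dermal fibroblast side, and 13 lay between. Their median log2 fold was -0.10. Over all genes with at least 10 counts the shares were 12%, 16.2% and 71.8% in this order, so the dermal fibroblast number was near that of genes at large. *Runx1t1*, a corepressor of the ETO family, was 2.62-fold higher in dermal fibroblasts (232 and 625 counts, interval 2.25 to 3.06), as were *Kat2b* at 2.16-fold (273 and 606 counts, 1.99-fold with *Actb* scaling) and *Lmo2* at 2.71-fold (33 and 92 counts, interval 1.81 to 4.17).

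With 2 libraries each gene gives a single fold, so likeness could be measured by the fold alone. Among 118 genes of the lists with at least 100 counts, other than the 7 genes themselves, the 3 whose log2 fold lay nearest to 2.52, the median of *Id1*, *Id2* and *Id3*, were *Smad9* (2.60), *Gdf10* (2.38) and *Myod1* (2.27). Genes outside the lists were not ranked, and some of them lay nearer, such as *Fn1* (2.58, 674829 and 116258 counts).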

How the data were processed

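Stranded mRNA libraries of primary chondrocytes and primary dermal fibroblasts were sequenced as 75 bp single-end reads. Per the submitters' processing notes, CASAVA 1.8.2, TopHat2 2.0.13, Bowtie2 2.2.3, SAMtools 0.1.19 and the mm10 build were used. The table the authors deposited held raw read counts, 1 row per gene symbol. The counting program, its annotation and its strand setting are not given in the sources used here. The table had 24421 rows, of which 27 carried a date in place of a symbol and were kept but not named.

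The members and gene lists were chosen with earlier results of these data known. Counts were scaled with edgeR 4.0.16 TMM factors in R 4.3.3, and folds, exact Clopper-Pearson and Poisson intervals and ratios of folds (exact conditional odds ratios) were computed in Python 3.11.15 with scipy 1.17.1. Fold calculations were tested on simulated data. Background counts cover genes with at least 10 counts over both libraries. Exon lengths are those of GENCODE vM1, which named 91.8% of these genes, and gene positions and promoters are those of RefSeq for GRCm38.p6, the same assembly as mm10. From each list the text names genes among the 3 with the most counts and the up to 3 with the largest fold at 100 or more counts. It also names the 3 genes nearest in fold to *Id1*, *Id2* and *Id3*. Chosen after their values were seen were *Usp1*, *Bmpr1b*, *Scx*, *Myf5*, *Myf6*, *Tal1*, *Hey1*, *Hey2*, *Dlx5*, *Msx1*, *Fn1* and *A330033J07Rik*. The alternatives were other scalings (including DESeq2 1.42.0 size factors), floors, a pseudocount, fold thresholds, filters and gene lengths. The ATAC-Seq and ChIP-Seq data of the study were not used here.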

Additional observations from a re-analysis of the deposited data

How the results depend on the processing

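No paired analysis was possible because neither cell type had more than 1 library. The 3 ID genes over 2-fold higher in chondrocytes stayed at 3 under the 5 other scalings, the floor of 10 counts, the pseudocount of 1, a threshold of 1.5 and the whole interval beyond 2-fold, and became 2, without *Id3*, at a threshold of 4. On the dermal fibroblast side the number was 0 under each of these. Of 49 alternative folds of the 7 genes, 8 lay outside the main counting interval, 4 of them with total counts and 4 with *Actb*. The 49 include the folds with the floor of 10 counts, which could not change because all 7 genes had more counts than that in each library. The pseudocount of 1 could hardly change them either. Over all lists beside the 7 genes, 24 genes exceeded 2-fold on the chondrocyte side (21 to 28 under the other scalings) and 20 on the dermal fibroblast side (17 to 21). Against TMM, total counts moved the median log2 fold by -0.14 and *Actb* by 0.12. Genes higher in chondrocytes made up 42.4% of all genes over 2-fold with TMM and 36.0% to 48.0% under the other scalings. With at least 100 counts, the genes over 2-fold numbered 1035 higher in chondrocytes and 1568 higher in dermal fibroblasts, against 1761 and 2388. Fewer genes were tested (11811 against 14730), and a smaller share of them was over 2-fold in each direction.

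The ratio of ID to E-protein level was 3.52 in chondrocytes and 0.850 in dermal fibroblasts. Without length correction it was 0.809 and 0.211, with the longest coding sequence 4.11 and 1.05, and with the longest transcript 3.12 and 0.764, both of these lengths being chosen after seeing the data since no protein table was used here. Leaving out a gene changes the sums by construction. The ratios were 2.31 and 0.664 without *Id1*, 2.64 and 0.705 without *Id2*, 2.27 and 0.552 without *Id3*, 3.35 and 0.628 without *Id4*, 5.41 and 1.23 without *Tcf3*, 4.56 and 1.08 without *Tcf4*, and 6.11 and 1.63 without *Tcf12*. The quotient of both libraries was 4.14, and it was 3.83 without length correction, 3.47 without *Id1*, 3.74 without *Id2*, 5.33 without *Id4* and 3.75 without *Tcf12*; in the other cases it stayed within its 95% counting interval. Per kb, an alternative added after seeing the data, the shares of *Id1*, *Id2*, *Id3* and *Id4* in the ID family were 34.5%, 25.0%, 35.5% and 4.87% in chondrocytes and 21.8%, 17.0%, 35.1% and 26.1% in dermal fibroblasts.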

Other observations

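The cell-cycle inhibitors that E proteins or ID proteins are known to control lay on both sides of equality. Of 6 genes, 1 exceeded 2-fold on the chondrocyte side, 2 on the dermal fibroblast side, and 3 lay between, with a median log2 fold of -0.06. The shares over all genes with at least 10 counts were 12%, 16.2% and 71.8%. *Cdkn1a*, a classical E-protein target that halts the cell cycle, had a fold of 1.23 (5737 and 4800 counts, interval 1.18 to 1.28). *Cdkn1c* was 2.44-fold higher in chondrocytes (3182 and 1339 counts, interval 2.29 to 2.60), and *Cdkn2b* was 2.23-fold higher in dermal fibroblasts (127 and 291 counts, interval 1.81 to 2.77).

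Another list held 10 muscle genes put down as having E-box promoters, though their promoters were not searched for E-boxes here. Of these, 3 exceeded 2-fold on the chondrocyte side, 0 on the dermal fibroblast side, and 7 lay between, with a median log2 fold of 0.46. The shares over all genes with at least 10 counts were 12%, 16.2% and 71.8%. *Chrna1*, a subunit of the muscle acetylcholine receptor, was 4.13-fold higher in chondrocytes (2279 and 567 counts, interval 3.76 to 4.53), *Chrnd* was 2.99-fold higher (474 and 163 counts) and *Des* was 2.35-fold higher (3790 and 1655 counts). *Myh3*, with 7784 and 6497 counts, and *Actc1*, with 7288 and 7970 counts, had folds of 1.23 and 0.939. The 3 muscle genes over 2-fold were higher in the same library as *Id1*, *Id2* and *Id3*, while the other 7 lay between the thresholds. Which cells carried each transcript, and any effect of ID proteins on these genes, was not tested.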
